A study of Rattus norvegicus with 26 samples.

Results

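The miR-34 family was followed in rat liver after 1/3 or 2/3 partial hepatectomy (PH), the surgical removal of a part of the liver, which is followed by regrowth of the remnant. Its members were taken by name, as the array features rno-miR-34a, rno-miR-34b and rno-miR-34c without a star, and were 3 of the 677 rat miRNAs on the array. miRNA was measured in the right liver lobes of 26 male Sprague-Dawley rats with 1 array per rat, in 9 groups. The groups were normal livers without PH (3 rats) and what was left of the liver after 1/3 PH, in which the left lateral lobe was removed, or 2/3 PH. The 4 times after each operation were 6 hours, 12 hours, 24 hours and 36 hours, with 3 rats per time except for 2 at 6 hours of 1/3 PH, where 1 array had been left out by the authors for poor quality. The age of the rats was not given in the sources used here. All livers were collected in the same morning hours, and no operated liver without tissue removal was among the groups, although a protocol field calls the normal livers sham. For some arrays the source name states a time 1 or 2 hours later than the title, and the title was followed.

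miRNAs are short RNAs that lower the output of target mRNAs, which they find mainly through the seed, a stretch near their 5′ end. The miR-34 genes are known as direct transcriptional targets of the tumour suppressor p53, and miR-34 miRNAs lower cell cycle regulators such as CDK4, CDK6, cyclin D1, cyclin E2, MYC and MET, so that in cultured cells a high miR-34 level goes with cell cycle arrest or senescence. In most adult tissues miR-34a is the member that is found broadly, whereas miR-34b and miR-34c, made from 1 shared transcript, are best known from ciliated airway epithelium and testis, and the related miR-449 miRNAs from multiciliated cells.

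The mature sequences show what the members of the family share and where they differ. They are given 5′ to 3′ from RefSeq (assembly GRCr8), with the seed, bases 2 to 8, in capitals, and the array names without an arm suffix were taken as the 5p arms.
rno-miR-34a-5p (chr5:165815971-165815992, plus strand): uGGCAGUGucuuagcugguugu
rno-miR-34b-5p (chr8:60306657-60306679, minus strand): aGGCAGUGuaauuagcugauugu
rno-miR-34c-5p (chr8:60306133-60306155, minus strand): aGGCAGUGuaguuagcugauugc
rno-miR-449a-5p (chr2:46403925-46403946, plus strand): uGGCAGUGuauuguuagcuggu
rno-miR-449c-5p (chr2:46402394-46402414, plus strand): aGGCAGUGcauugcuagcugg
Of the 724 mature rat miRNAs in the RefSeq table, these 5 carried the seed GGCAGUG, and miR-449a and miR-449c are shown because they would be expected to find the same seed matches. Over their whole length, seed included, miR-34b and miR-34c had the same base at 21 of 23 positions. Each is 1 base longer than miR-34a, and with the 1 base left out that gave the best match, miR-34b had the same base as miR-34a at 19 of 22 positions and miR-34c at 18 of 22. The Mir34b and Mir34c hairpins lay 441 bases apart on chromosome 8, with Mir34c wholly and Mir34b partly inside the span of Hoatz, whereas the Mir34a hairpin on chromosome 5 lay wholly inside the lncRNA gene LOC103692514 (whether in exon or intron was not resolved here).

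miR-34a was the member of the family that these livers showed. Each family member was probed by 2 probes with 10 spots each on every array, so that 520 spot values per member stood behind the detection calls. The scanner software called rno-miR-34a detected on 26 of 26 arrays, 450 of its 520 spot values were well above background, and its summed signal ran from 15.5 to 250.4 fluorescence units with a median of 84.9. No spot was saturated.

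rno-miR-34b was detected on 0 of 26 arrays. Its summed signal ran from -0.482 to 5.99 units (median 3.59), and 9 of 520 spot values, 1 on each of 9 arrays, were well above background. rno-miR-34c was also detected on 0 of 26 arrays, with signals from -3.48 to 3.17 units (median 0.628) and 7 of 520 spot values on 5 arrays well above background. For comparison, the dimmest probe that counted as well above background read between 6.48 and 19.4 units, depending on the array, so that miR-34b and miR-34c stayed under that level in normal livers and at every time after both operations. No fold change is given for either, since a change below this level was not measurable on these arrays, and an absence of miR-34b and miR-34c from the tissue is not shown by it.

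**Figure D1:**
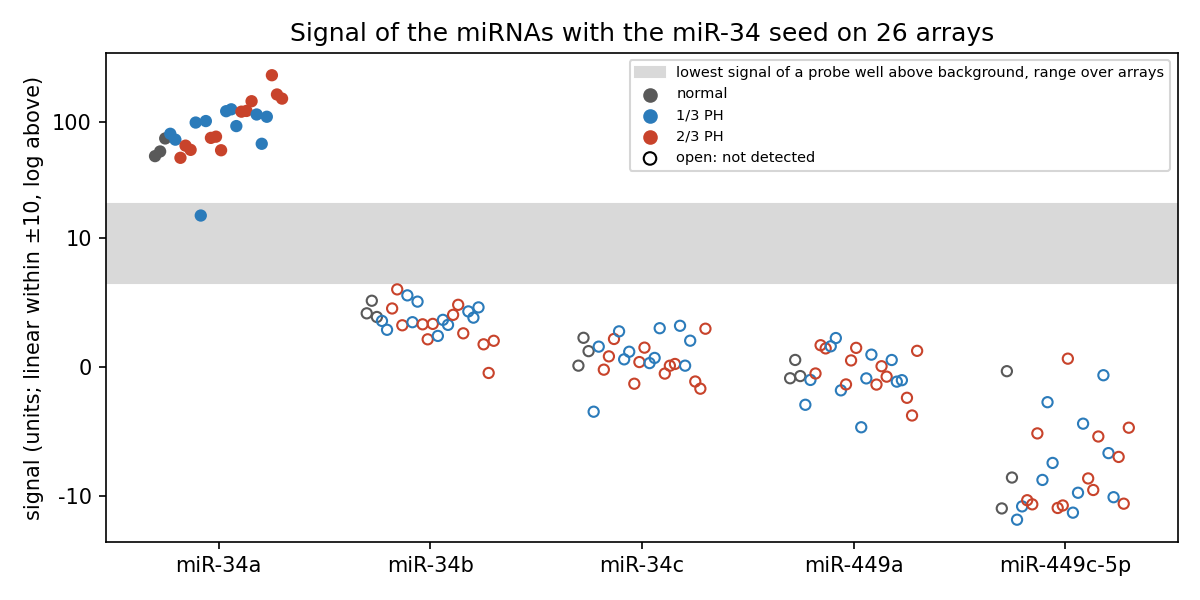
Summed signal of the 5 miRNAs with the miR-34 seed (columns) on each of 26 arrays, in fluorescence units on an axis that is linear within ±10 and logarithmic beyond, with open points for arrays on which the miRNA was not detected; within a column the points follow the order of the groups. miR-34a lies between 15.5 and 250.4 units, whereas the miR-34b and miR-34c points, none above 5.99 units, stay below the grey band, which spans the dimmest reading well above background over the arrays (6.48 to 19.4 units).

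The other arms and the seed relatives were not detected either. The star arms miR-34a*, miR-34b* and miR-34c* were detected on 0 of 26 arrays, and so were miR-449a, miR-449c-5p and their other arms miR-449a* and miR-449c-3p. Of the 5 miRNAs with this seed, miR-34a alone was therefore measured above background, and the rest of the results concern it.

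The level of miR-34a is given as the log2 of the signal divided by the array's 75th percentile, so that 1 unit on this scale is a doubling. In the 3 normal livers it was -2.17, -2.07 and -2.09, with a mean of -2.11 ± 0.056 (SD, n = 3). This SD was the smallest of the 9 groups. Before scaling the same livers read 50.4, 55.2 and 71.5 fluorescence units.

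After 1/3 PH, miR-34a was above the normal livers at all 4 times on this scale, although the sign at 6 and 12 hours changed under another scaling or table of values (given with the tests below), and its mean was highest at 24 hours. The 2 livers at 6 hours read -1.87 and -1.68. At 12 hours the values were -1.30, -1.95 and -1.20, the most scattered group, in which the middle liver came from an array far dimmer than all others. By 24 hours they had reached -1.07, -1.04 and -1.41. The livers at 36 hours, at -1.06, -1.79 and -1.37, spread over the range of the 12 and 24 hour groups and lay, on the average, between them. Every one of the 11 livers after 1/3 PH read higher than the highest normal liver.

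After 2/3 PH the course was different in shape, with values near normal at 6 hours and a higher mean at each later time. At 6 hours the 3 livers read -2.15, -1.81 and -2.07 and overlapped the normal range. At 12 hours they read -1.37, -1.69 and -1.88, all above normal. At 24 hours they were -1.16, -0.80 and -0.65, and at 36 hours -0.030, -0.59 and -0.16, where the lowest liver was still above the highest of the 24 hour group. The 36 hour livers held the 3 highest miR-34a values of all 26 rats.

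**Figure D2:**
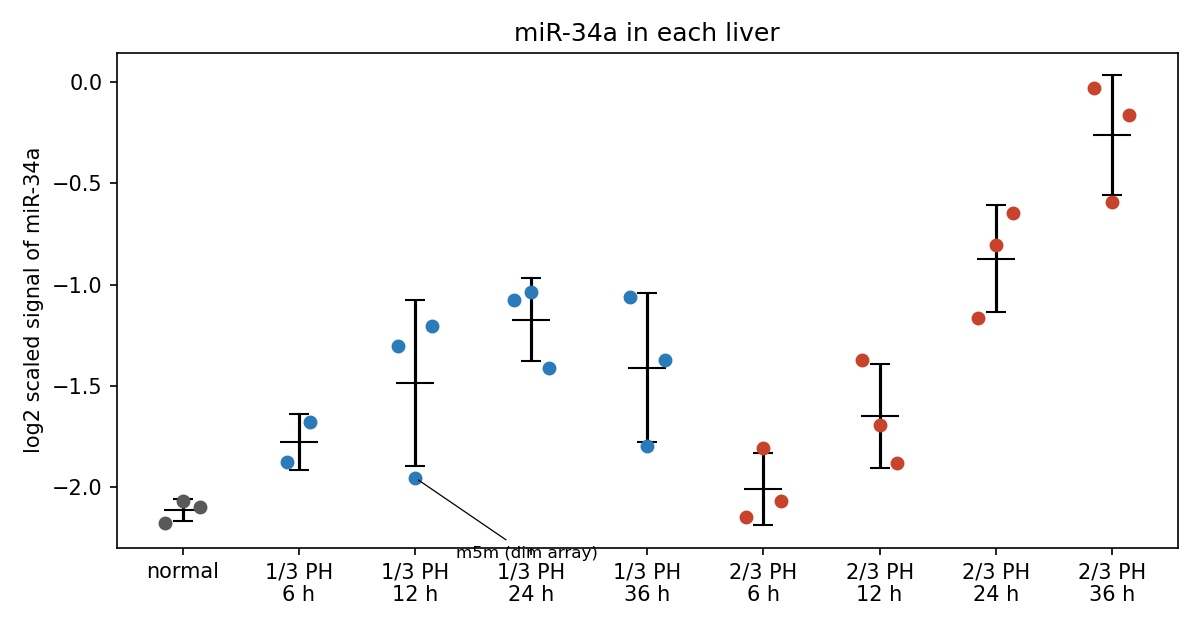
miR-34a in each liver as log2 of the scaled signal (vertical axis), by group along the horizontal axis: normal livers in grey, 1/3 PH in blue and 2/3 PH in red, with a horizontal line at the group mean and bars of 1 SD; the dim array at 12 hours after 1/3 PH is marked. The 3 livers at 36 hours after 2/3 PH, from -0.59 to -0.030, lie above all others, and the normal livers, from -2.17 to -2.07, lie at the bottom.

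Ordered by their means, the groups ran from normal (-2.11) over 6 hours after 2/3 PH (-2.01 ± 0.18), 6 hours after 1/3 PH (-1.77 ± 0.14, n = 2), 12 hours after 2/3 PH (-1.65 ± 0.26), 12 hours after 1/3 PH (-1.49 ± 0.41), 36 hours after 1/3 PH (-1.41 ± 0.37), 24 hours after 1/3 PH (-1.17 ± 0.20) and 24 hours after 2/3 PH (-0.87 ± 0.26) to 36 hours after 2/3 PH (-0.26 ± 0.29; SD, n = 3 except where given). Neighbours in this order differed by 0.075 to 0.24 up to the step at 24 hours after 1/3 PH, less than the pooled SD within groups of 0.27. Only the last 2 steps were larger than that SD. They were 0.30, from 24 hours after 1/3 PH to 24 hours after 2/3 PH, where the ranges still overlapped, and 0.61, from 24 to 36 hours after 2/3 PH, where they did not.

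The question of when miR-34a departed from normal liver was tested in 1 limma fit of all 26 arrays over 144 miRNAs, those with a detection call on all arrays of some group, with Benjamini-Hochberg adjustment within each comparison and a threshold of 0.05. Over the 9 groups together miR-34a varied beyond the spread between arrays within groups (limma F = 14.4, adjusted p = 4.77e-05). It had the third highest F of the 144, of which 43 (29.9%) passed. In whole liver tissue, more cells that hold miR-34a and more miR-34a per cell cannot be told apart.

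In the tests against normal liver, miR-34a rose after 2/3 PH at the last 2 times. At 24 hours it was 2.36-fold higher (95% interval 1.73 to 3.23, log2 difference 1.24, SE 0.22, adjusted p = 0.00100). At 36 hours it was 3.60-fold higher (2.64 to 4.92, log2 difference 1.85, adjusted p = 2.40e-06). Among the 144 miRNAs only 1 had a larger log2 rise at each of these times. At 24 hours 26 miRNAs (18.1%) passed, 14 of them (9.72%) upward, and 30 (20.8%) lay above normal without overlap, as miR-34a did; at 36 hours 27 (18.8%) passed, 16 (11.1%) upward, and 38 (26.4%) lay above without overlap.

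The early differences after 2/3 PH were small. At 12 hours the 3 livers lay above the normal livers, as did 11 miRNAs in all (7.64%), but the fold of 1.38 (1.01 to 1.89) had an adjusted p of 0.242, in a comparison in which 10 miRNAs (6.94%) passed and 1 (0.694%) was higher. At 6 hours the fold was 1.08 (0.787 to 1.47, adjusted p = 0.871), the ranges overlapped, and the difference was -0.069 on the log2 scale when arrays were not scaled. At this time 10 miRNAs (6.94%) were above normal without overlap and limma called 0 of 144 (15 at an unadjusted p under 0.05).

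After 1/3 PH, miR-34a at 24 hours was the only one of the 144 miRNAs to pass against normal liver (0.694%; 16 passed at an unadjusted p under 0.05). The fold was 1.92 (1.40 to 2.62, log2 difference 0.94, adjusted p = 0.0469), and 8 miRNAs (5.56%) lay above normal without overlap. This call was close to the threshold and did not hold under 13 of 16 other settings, with adjusted p from 0.0195 to 1.00 over all of them, or without any 1 of 18 of the 26 arrays. The fold itself kept its direction under all of these.

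At the other times after 1/3 PH the differences from normal did not pass. At 6 hours the fold was 1.26 (0.892 to 1.79, adjusted p = 0.789), with the difference at -0.15 in the authors' own log2 table. At 36 hours it was 1.63 (1.19 to 2.22, adjusted p = 0.342). In both comparisons limma called 0 of 144 (8 and 7 at an unadjusted p under 0.05), while 16 (11.1%) and 22 (15.3%) of them, miR-34a included, lay above normal without overlap.

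The 12 hour group after 1/3 PH rests on how its dim array is treated. With it, miR-34a was 1.54-fold of normal (1.13 to 2.11, adjusted p = 0.0804), with 6 miRNAs (4.17%) passing, 2 (1.39%) of them upward, and 27 (18.8%) above normal without overlap, but the log2 difference of 0.63 became -0.12 without scaling and -0.43 with the 75th percentile over all probes. The total signal of that array was 18196 units against 58458 to 95463 on the other 25, and 91 miRNAs were detected on it against 118 to 155. Without this array the difference was 0.86 and passed (limma adjusted p = 0.0378). The percentile over all probes lay under the dimmest reading well above background on every array.

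**Figure D3:**
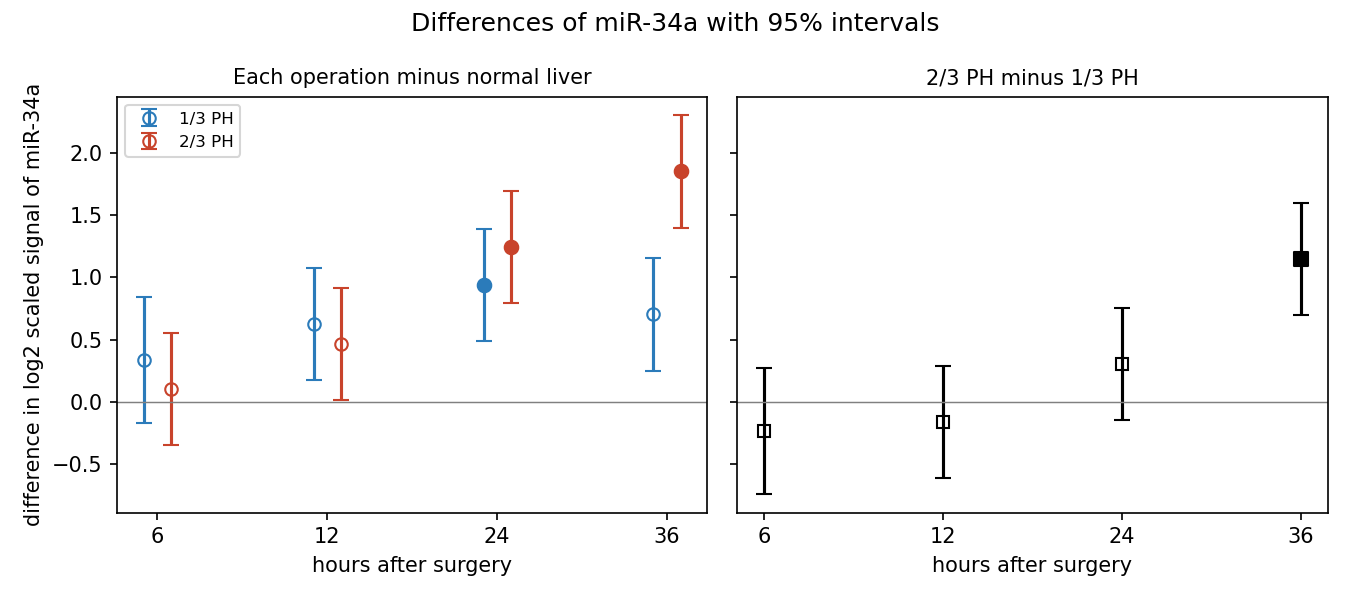
Differences of miR-34a in log2 scaled signal (vertical axes) by hours after surgery, each operation minus normal liver on the left (1/3 PH in blue, 2/3 PH in red) and 2/3 PH minus 1/3 PH on the right, with 95% intervals from limma; filled symbols have an adjusted p under 0.05. After 2/3 PH the difference from normal goes from 0.10 at 6 hours to 1.85 at 36 hours, and the operations are apart at 36 hours, by 1.15; the sign at 6 hours after either operation, at 12 hours after 1/3 PH and between the operations at 6, 12 and 24 hours changed with the scaling or the source of the values.

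The comparison of the operations at the same time asks whether the larger mass deficit went with another miR-34a level. At 36 hours it did: miR-34a was 2.22-fold higher after 2/3 PH than after 1/3 PH (1.62 to 3.03, log2 difference 1.15, adjusted p = 0.00173), with no overlap between the 3 livers of each group. At this time 22 of 144 miRNAs (15.3%) passed, 15 (10.4%) of them higher after 2/3 PH, 20 (13.9%) were higher without overlap, and miR-34a had the sixth largest rise. All arrays of 36 hours after 1/3 PH were scanned on 1 day and those of 2/3 PH on the other 2 days. They were also on different slides, slide 2 for 1/3 PH and slides 3 and 6 for 2/3 PH. Within a scan day or a slide the operations could therefore not be compared at 36 hours. With scan day as a block, linked through the other groups, the difference was 1.42 (limma adjusted p = 0.00227).

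At the earlier times the operations were not told apart. At 24 hours the fold of 2/3 PH over 1/3 PH was 1.23 (0.903 to 1.68, adjusted p = 0.814), which became -0.13 on the log2 scale with the percentile over all probes, while 4 of 144 miRNAs (2.78%) passed, all higher after 2/3 PH, and 13 (9.03%) were higher without overlap. At 12 hours it was 0.894 (0.654 to 1.22, adjusted p = 0.798) and at 6 hours 0.851 (0.600 to 1.21, adjusted p = 0.946), with log2 differences of 0.33 and 0.57 at 12 hours without scaling and with all probes, and of 0.45 and 0.24 at 6 hours under normexp and in the deposited table. limma called 0 of 144 at both times (9 and 3 at an unadjusted p under 0.05), and the share higher without overlap was 0.694% at 12 hours and 11.1% at 6 hours. The intervals at these 3 times reach from 0.600 to 1.68, so differences within this range were not resolved.

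The course within each operation was compared by setting the later livers, at 24 and 36 hours, against the earlier ones, at 6 and 12 hours. After 2/3 PH the later livers held 2.40-fold more miR-34a (1.92 to 2.99, log2 difference 1.26, SE 0.15, adjusted p = 4.24e-06), and each of the 6 later livers was above each of the 6 earlier ones. In this comparison 50 miRNAs (34.7%) passed, 27 (18.8%) of them upward, 16 (11.1%) without overlap, and miR-34a had the second largest rise. After 1/3 PH the ratio was 1.26 (log2 difference 0.34, SE 0.16, adjusted p = 0.326), with overlap, and turned to -0.027 and -0.023 on the log2 scale with the percentile over all probes and with normexp; 14 miRNAs (9.72%) passed, 10 (6.94%) of them upward, and 4 (2.78%) rose without overlap. The difference between these 2 courses was itself tested and was 0.92 on the log2 scale (SE 0.22, adjusted p = 0.0107), in a test that 10 miRNAs (6.94%) passed, 8 (5.56%) of them in this direction. Its direction held under all 15 other settings, but the call was lost under 5 of them (limma adjusted p from 0.00793 to 0.901 over all 15).

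The 2 probes of miR-34a were compared. One probe was dimmer, from 4.29 to 46.03 units, with all 10 spots well above background on 13 arrays, none on 2, and at least 5 of 10 on 19 arrays, 2 of them from the 3 normal livers, and the other read 11.2 to 204.4 units with all its spots well above background on 26 arrays. The median coefficient of variation among spots was 16.1% for the dimmer and 7.41% for the brighter probe. At 36 hours after 2/3 PH the dimmer probe gave 3.58-fold and the brighter 3.62-fold of normal, and at 24 hours 2.31-fold and 2.38-fold. Between the operations at 36 hours they gave 2.43-fold and 2.17-fold. At 12 hours after 1/3 PH they were further apart, at 1.79-fold and 1.48-fold. For these folds of single probes, low signals were not raised to the array's lowest signal well above background, unlike in the main fit. The folds of the dimmer probe rest in part on readings near background. With the brighter probe alone the log2 difference at 36 hours after 2/3 PH was 1.85 (adjusted p = 3.29e-06).

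The late rise was about as large within a slide or scan day, where both groups had arrays there. At 36 hours after 2/3 PH the fold over normal was 3.44 on the slide that held 2 of these livers and 1 normal liver, which was also the only slide of the second scan day, and 3.74 between the single livers of the third scan day. At 24 hours after 2/3 PH it was 2.47 for 3 livers against the 1 normal liver of the first scan day. At 24 hours after 1/3 PH it was 2.17 on the first day (2 livers against 1) and 1.58 on the third (1 against 1). These values have no replicate check of their own, because each day held 1 normal liver.

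The miRNAs around miR-34a in the p53 network were examined to see whether its course was shared. Of 9 further miRNAs known to be raised by p53, through transcription or through processing, 5 were tested (miR-16, miR-107, miR-143, miR-192 and miR-194), and miR-145, miR-215, miR-200c and miR-141 were detected on no array. limma called none of the 5 higher against normal liver in 20 tests after each operation (before adjustment, 0 tests after 1/3 PH and 1 after 2/3 PH were higher at p under 0.05). Of all 144 miRNAs, 0% to 1.39% were called higher at a single time after 1/3 PH and 0% to 11.1% after 2/3 PH. A count of 0 in 20 tests is near these shares and does not tell whether the course was shared. miR-192, abundant in liver, was the only one called at all, and it was lower, by -0.41 at 12 hours after 1/3 PH (adjusted p = 0.0117), by -0.34 at 12 hours (adjusted p = 0.0274) and by -0.29 at 24 hours after 2/3 PH (adjusted p = 0.0374); it was also 0.23 higher in the later than in the earlier livers after 1/3 PH (adjusted p = 0.0341). At 36 hours after 2/3 PH the median log2 difference of the 5 was -0.028, against 0.061 for all 144 miRNAs and 1.85 for miR-34a. The highest of the 5, singled out after its values were seen, was miR-16 at 0.59 (adjusted p = 0.0743).

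Of 5 miRNAs known to lower p53 itself, miR-125b-5p, miR-25 and miR-30d were tested, miR-504 was detected on no array and miR-33 on 2. miR-25 rose after 2/3 PH, by 0.48 at 24 hours (adjusted p = 0.0439) and by 0.58 at 36 hours (adjusted p = 0.0114). miR-125b-5p was lower in the later than in the earlier livers after 2/3 PH, by -0.43 (adjusted p = 0.0122), and miR-30d was not called in any comparison. The 3 therefore did not move in 1 direction, and their median was -0.033 at 24 hours and 0.010 at 36 hours after 2/3 PH, beside 0.047 and 0.061 for all miRNAs.

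The third list held the 9 miRNAs of the miR-17~92 and miR-106b~25 clusters, which E2F factors are known to induce in cycling cells and which promote entry into the cell cycle, the reverse of the action known for miR-34a. All 9 were tested. The list was chosen with earlier results of these data known. It holds miR-25, miR-106b, miR-92a and miR-93, which the authors had picked from these arrays. Their ground was a higher level at 24 hours after 2/3 PH than after 1/3 PH. The counts below, set beside the shares of all miRNAs, are therefore a description and no independent test of the clusters. At 24 hours after 2/3 PH 6 of the 9 rose and at 36 hours 5, with median log2 differences of 0.56 and 0.72, and none fell, while of all miRNAs 9.72% and 11.1% rose. Between the operations at 36 hours 6 of 9 were higher after 2/3 PH (median 0.67, against -0.12 for all miRNAs, of which 10.4% were higher). After 1/3 PH limma called none of the 9 against normal liver in 36 tests (0 higher and 2 lower at an unadjusted p under 0.05). Of all miRNAs 0% to 1.39% were called higher at a single time after 1/3 PH, so this count is near that share. At 12 hours after 2/3 PH miR-19b was lower (-0.63, adjusted p = 0.0454). Between the earlier and the later livers, 8 of 9 rose after 2/3 PH, where 18.8% of all miRNAs did, and 2 of 9 after 1/3 PH, where 6.94% did; these 2 were miR-19b (0.46, adjusted p = 0.0451) and miR-106b (0.42, adjusted p = 0.0243). At 36 hours after 2/3 PH miR-93 rose by 1.15 (adjusted p = 2.10e-06), miR-17-5p by 1.07 (adjusted p = 0.00401), miR-18a by 1.80 (adjusted p = 0.000677) and miR-106b by 0.74 (adjusted p = 0.00180). miR-18a was detected on 14 arrays only, 2 of them from the 3 normal livers, so that its rise is measured in part from the lowest level the arrays could read. The lowest normal value of miR-17-5p, -4.34, was also the lowest level that its array could read. At 24 hours after 1/3 PH, where miR-34a was called, the median of the 9 was 0.093, against 0.011 for all miRNAs. All comparisons with normal liver share the same 3 livers.

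**Figure D4:**
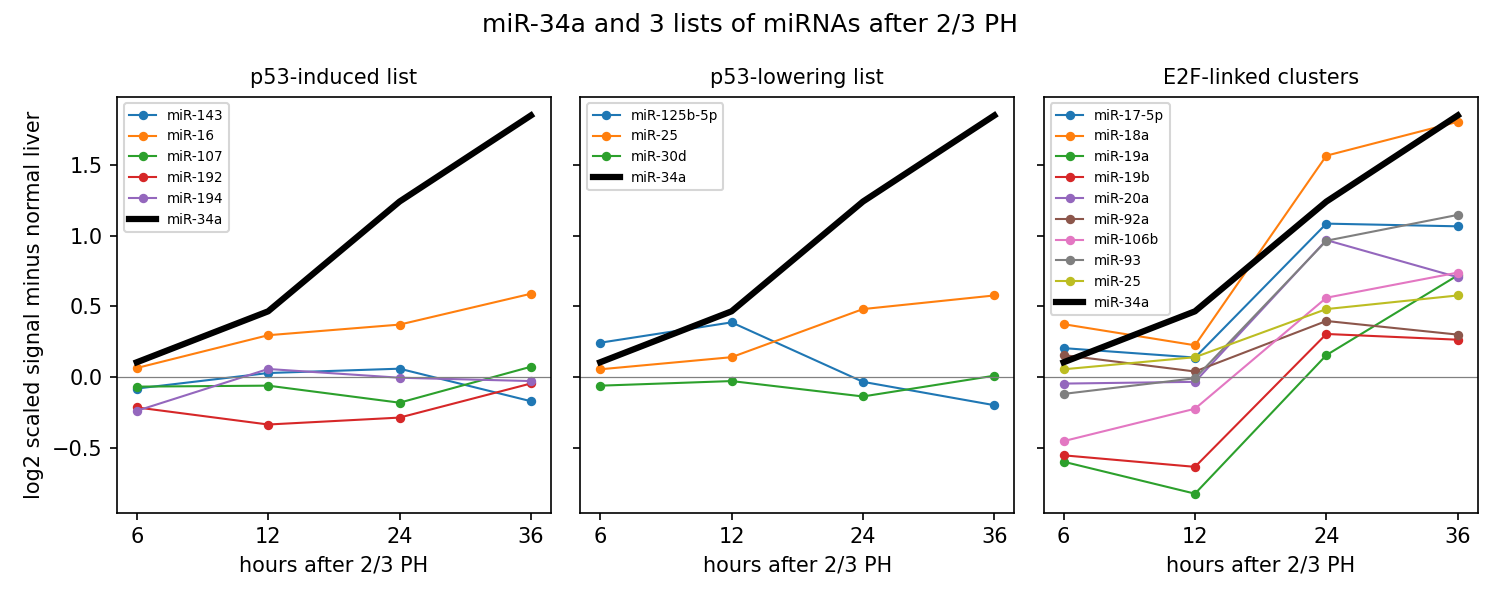
Log2 scaled signal minus normal liver (vertical axis) by hours after 2/3 PH for miR-34a (thick black line, repeated in each panel) and the tested members of the 3 lists: miRNAs raised by p53, miRNAs that lower p53, and the E2F-linked clusters. Lines join group means of 3 livers; miR-34a reaches 1.85 at 36 hours, the p53-raised list has a median of -0.028 there, with miR-16 at 0.59, and the cluster members have a median of 0.72.

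The miRNAs whose group means ran most like those of miR-34a are given as a description over the 9 group means, without a test, from 143 miRNAs compared. They were miR-93 (Pearson r = 0.88, Spearman rho = 0.63), miR-429 (r = 0.88, rho = 0.88), miR-1949 (r = 0.88, rho = 0.73), miR-18a (r = 0.87, rho = 0.68) and miR-743a (r = 0.86, rho = 0.77). miR-93 and miR-18a belong to the clusters described above, and miR-429 is a miR-200 family member known from epithelial cells. The choice depends on the measure, since 2 of these 5 are among the 5 highest by Spearman rho, with ties counted, and 3 are after quantile normalization. Most unlike it were miR-10a-5p (r = -0.97), miR-26a (r = -0.94), known as an inhibitor of liver cell proliferation, and miR-511* (r = -0.93). At 36 hours after 2/3 PH these 3 were lower than in normal liver by -0.60, -0.64 and -0.69. Group means on the same arrays share each array's scaling, and these correlations are not independent of it. Some of the means also hold the lowest level the arrays could read. miR-18a was detected on 14 arrays, miR-743a on 20, miR-429 on 22, and miR-93 and miR-1949 on 25 each. At 6 and 12 hours after both operations the means of miR-18a equalled those of undetected miR-34b, which were all at that level. The means of miR-1949 at 6 hours after both operations and at 12 and 36 hours after 1/3 PH also held a value at that level. The r and rho of miR-18a, miR-743a, miR-429 and miR-1949 therefore rest in part on that level and not on measured signal.

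Markers of the cell types in liver were read beside the rise of miR-34a. miR-122, which defines hepatocytes, was detected on all 26 arrays and had a scaled signal of 138 to 194, with no call in any comparison. Of the epithelial miR-200 family, known in liver from bile duct cells, 3 of 5 members were detected (miR-200a, miR-200b and miR-429). miR-200c and miR-141 were on no array. The summed scaled signal was 0.148 to 0.299 in normal livers and 0.435 to 0.651 at 36 hours after 2/3 PH. All 3 detected members rose at that time, where 11.1% of all miRNAs did. At 24 hours after 2/3 PH miR-200b and miR-429 rose, where 9.72% of all miRNAs did. Both were also higher at 12 hours after 1/3 PH (1.35 and 1.11, adjusted p = 0.0117 and 0.0334), where 1.39% of all miRNAs were and the sum was 0.466 to 0.616. That group includes the dim array, whose lowest readable level was -3.21, beside a group mean of -3.19 for miR-429. miR-429 was detected on 22 arrays, 2 of them from the 3 normal livers, and miR-200a on 21. The rises of miR-429 are therefore measured in part from the lowest level the arrays could read. All 3 detected members were higher in the later than in the earlier livers after 2/3 PH, where 18.8% of all miRNAs were. The differences were 0.56 for miR-200a, 0.65 for miR-200b and 0.83 for miR-429 (adjusted p = 0.0462, 0.0167 and 0.00386). At 36 hours miR-200b was higher after 2/3 PH than after 1/3 PH (0.90, adjusted p = 0.0413), where 10.4% of all miRNAs were. miR-34a was higher in both of these comparisons. The part of these cells in the level of miR-34a was not tested.

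Of the leukocyte markers, 3 of 4 were detected, with miR-142-5p on no array, and 2 of them fell in groups in which miR-34a rose. miR-142-3p was lower by -1.05 (adjusted p = 0.0126) and miR-150 by -0.58 (adjusted p = 0.0138) at 24 hours after 2/3 PH, and miR-150 by -0.74 (adjusted p = 0.00247) at 36 hours. The other detected marker, miR-223, was not called against normal liver after either operation. Of all miRNAs 18.1% passed at 24 hours after 2/3 PH, with 9.72% upward, and 18.8% at 36 hours, with 11.1% upward. The summed leukocyte signal was 0.622 to 0.780 in normal livers, 0.385 to 0.511 at 24 hours and 0.504 to 0.612 at 36 hours after 2/3 PH. The endothelial miR-126, the 4 detected of 5 stellate and mesenchymal markers and the tested red cell marker miR-451 were not called in any comparison, and the muscle markers miR-1 and miR-133a were detected on no array.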

How the data were processed

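Labelled RNA of 26 livers was hybridised to 1-colour Agilent rat miRNA arrays. The authors deposited the fluorescence intensity of each of 13540 miRNA spots per array, background-subtracted and detrended by Agilent Feature Extraction 10.7.3.1 without normalization between arrays. They also deposited a log2 value table whose normalization is not given in the sources used here, and which served as an alternative. Here, unmarked spots were averaged per probe (1644 probes) and probes summed per miRNA. The scale of an array was the 75th percentile of 109 probes that were well above background on all arrays, signals under the array's lowest signal well above background were raised to it, and log2 was taken. limma 3.58.1 in R 4.3.3 fitted 9 group means to 144 miRNAs (residual degrees of freedom 17, prior degrees of freedom 2.32), after a check on simulated data. Figures and tables were made with Python 3.11.15, pandas 2.3.3, numpy 2.4.6 and matplotlib 3.10.9. The tests weigh a difference against the spread between arrays within groups. With 1 array per rat, this spread holds differences between rats and between arrays together. Slide and scan day were not in the main fit.

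Named besides the members are miRNAs sharing their seed, the 5 most and 3 least correlated with miR-34a, and up to 4 called miRNAs per list, with other list members named where a count needed it. The members and lists were chosen with earlier results of these data known. Alternatives were other scalings, normexp background correction, other probe summaries, floors and detection filters, the deposited table, slide or scan day as blocks, other variance models, fits of only the compared groups, and leaving out each array. The dimmer miR-34a probe alone was added after seeing the data. The number of arrays, not read depth, limits precision.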

Additional observations from a re-analysis of the deposited data

Results flagged for a closer look

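The change of miR-34a from 6 and 12 hours to 24 and 36 hours differed between the operations in the test of the difference itself. It was 0.92 larger after 2/3 PH than after 1/3 PH on the log2 scale (SE 0.22, limma adjusted p = 0.0107), with a rise of 1.26 after 2/3 PH and 0.34 after 1/3 PH. The call was lost under 5 of 15 other settings, given below. No sample was tested as an outlier, because no group held 4 or more arrays.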

How the results depend on the processing

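The rises after 2/3 PH and the difference between operations at 36 hours kept their direction under all alternatives run, but not always their call. All values are log2 differences of miR-34a, and the cause of each change was not tested unless given. Without scaling, calls were lost at 24 hours after 1/3 PH (0.95), at 24 (1.17) and 36 hours (1.69) after 2/3 PH, between operations at 36 hours (1.02), in the difference of the courses (0.66) and over all groups (F = 3.69), and the sign turned at 12 hours after 1/3 PH (-0.12), at 6 hours after 2/3 PH (-0.069) and between operations at 12 hours (0.33). With the 75th percentile over all probes, lost calls were 24 hours after 1/3 PH (0.91), 24 (0.78) and 36 hours (1.76) after 2/3 PH and the difference of the courses (1.22), gained ones 6 hours after 1/3 PH (1.52, adjusted p = 0.0373) and between operations at 6 hours (-1.50, adjusted p = 0.0410), and the sign turned at 12 hours after 1/3 PH (-0.43), between operations at 12 (0.57) and 24 hours (-0.13) and late against early after 1/3 PH (-0.027). That percentile was only 0.334 to 3.28 units, under the dimmest reading well above background on any array (6.48 units). It therefore scaled the arrays by signal at the level of the background. Leaving out the scaling and using this percentile both add 1 constant per array to every miRNA. The difference of miR-34a from the median miRNA was therefore the same as in the main scaling (1.79 at 36 hours after 2/3 PH, 0.53 at 12 hours after 1/3 PH). The median at 12 hours after 1/3 PH moved from 0.099 to -0.65 and -0.95. Normexp with an offset of 50 units, of the size of the miR-34a signal, compressed the values (36 hours after 2/3 PH: 0.48 above a median of 0.63) and lost 24 hours after 1/3 PH (0.37) and 2/3 PH (0.57), operations at 36 hours (0.80), late against early after 2/3 PH (0.41), the difference of the courses (0.43) and F (2.83), with turned signs between operations at 6 hours (0.45) and late against early after 1/3 PH (-0.023). The deposited table lost the difference of the courses (0.77) and turned 6 hours after 1/3 PH (-0.15, with the median miRNA at -0.28) and between operations at 6 hours (0.24). Slide as a fixed block lost the difference of the courses (0.98, adjusted p = 0.0733).

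The call at 24 hours after 1/3 PH was also lost with quantile normalization (0.79), the deposited table (0.84), total gene signal (0.91), the brightest probe (0.95), a floor of 1 unit (0.94), a detection filter of at least 1 array (0.94), slide as random (0.87) or fixed block (0.77), scan day as block (0.85) and the dimmer probe (0.74), which brought 12 hours after 1/3 PH over the threshold (0.90, adjusted p = 0.0393). Leaving out each array gave 0.87 to 1.06 at 24 hours after 1/3 PH (call lost for 18 of 26) and 0.49 to 0.86 at 12 hours, where only leaving out the dim array gave a call; all other results kept their side of the threshold for all 26. Counting any spot well above background as detection put miR-34b on 9 and miR-34c on 5 arrays. No paired analysis was possible because replicate numbers do not pair rats across groups. The SE of a log2 difference between groups of 3 was 0.22.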
